A study of Homo sapiens with 24 samples.

Results

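The genes described here are 35 protein-coding genes of protein folding and quality control in the endoplasmic reticulum (ER), covering its chaperones, the unfolded protein response (UPR) and ER-associated degradation (ERAD). They were taken from a list of gene symbols, with no threshold on a measured value, and all 35 were found among the 48162 genes of the count table, of which 20312 are protein coding. RNA was sequenced from PPC1, an established prostate cancer cell line, in 4 conditions with 6 libraries each, 24 libraries in all. Every culture was plated on day 1 and harvested on day 5. Parental cells (UT) received no radiation. Polyploid giant cancer cells (PGCC) came from cultures given a dose of 8 Gy on day 2 and were enriched at harvest on a 20 micron filter, a step that the parental cells did not go through. Both populations were also exposed to 5 µM LCL521, an inhibitor of the lysosomal enzyme acid ceramidase (ASAH1), for 5 h before harvest (UT_LCL and PGCC_LCL). According to the design, the experiment was carried out 6 independent times with all 4 conditions harvested side by side, and the replicate number marks the experiment. Radiation and filtering were applied to the same cultures, so their parts cannot be told apart, and all conditions come from 1 cell line.

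Proteins that enter the secretory pathway are threaded into the ER through the SEC61 translocon, folded by the Hsp70 chaperone BiP, the Hsp90 chaperone GRP94, the lectins calnexin and calreticulin and the protein disulfide isomerases, and handed over to ERAD when folding fails. ERAD lectins and mannosidases mark such proteins, and the SEL1L and SYVN1 ubiquitin ligase complex moves them back to the cytosol for destruction. The UPR balances this capacity with load through the sensors IRE1, PERK and ATF6, whose output runs through XBP1, ATF4 and the cleaved form of ATF6, and secretory and many cancer cells depend on it. ATF6 and XBP1 act on promoters through the ER stress element (ERSE) and its variant ERSE-II.

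These elements were searched in the promoters of the genes because the sequence does not depend on the RNA counts. The genes were listed for known roles in the ER and the UPR, so the shares below describe them and are no independent test. Each window held 300 bases of the RefSeq sequence (GRCh38.p14), of which 250 lie before the gene's start, and 32 of the 35 genes had at least 1 window, 41 windows in all. PDIA3, DERL1 and DERL3 had none. The ERSE was searched on both strands as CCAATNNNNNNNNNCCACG. It stood in the promoters of 7 of the 32 genes (21.9%), against 25 of the 27305 genes of the whole promoter table (0.0916%), or in 9 of the 41 windows against 27 of all 35116 (0.0769%). The whole table includes the 32 genes. ERSE-II, searched as ATTGGNCCACG, stood in 3 further genes (7.32% of the windows, against 0.0541% of all). The stretches with an element are shown with 10 bases on each side, in the direction of transcription and with the element in capitals.

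HSPA5, chr9:125241381-125241419, minus strand: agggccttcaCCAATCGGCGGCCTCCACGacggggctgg
HSP90B1, chr12:103930206-103930244, plus strand: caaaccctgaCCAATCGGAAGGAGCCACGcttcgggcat
HSP90B1, chr12:103930311-103930349, plus strand: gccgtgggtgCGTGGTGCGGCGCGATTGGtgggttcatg
CALR, chr19:12938374-12938412, plus strand: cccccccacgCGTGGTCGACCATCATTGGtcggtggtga
CANX, chr5:179698768-179698806, plus strand: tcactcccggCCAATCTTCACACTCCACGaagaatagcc
PDIA6, chr2:10812843-10812881, minus strand: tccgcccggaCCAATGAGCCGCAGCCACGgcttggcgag
CRELD2, chr22:49918544-49918582, plus strand: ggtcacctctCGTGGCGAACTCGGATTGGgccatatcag
XBP1, chr22:28800593-28800631, minus strand: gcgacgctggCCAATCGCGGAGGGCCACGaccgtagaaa
HERPUD1, chr16:56932015-56932045, plus strand: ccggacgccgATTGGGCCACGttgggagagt
HYOU1, chr11:119057264-119057294, minus strand: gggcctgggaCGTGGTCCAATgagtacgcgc
HYOU1, chr11:119057370-119057400, minus strand: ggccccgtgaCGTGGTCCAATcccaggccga
SDF2L1, chr22:21642104-21642134, plus strand: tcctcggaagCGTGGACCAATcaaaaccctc

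Elements that begin with CGTGG are matches on the strand opposite to the gene. The site of HSPA5 lay 66 to 48 bases before its start, that of XBP1 52 to 34 bases before it and that of HERPUD1 117 to 107 bases before it. The site of CANX lay in the windows of 3 of its starts and crossed 1 of them. The 250 bases before the starts of HSPA5 and HERPUD1 are shown whole because these genes, which encode the chaperone BiP and an ERAD membrane protein, had levels that differed between the experiments in both populations, as described further on.

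HSPA5, chr9:125241344-125241593, minus strand: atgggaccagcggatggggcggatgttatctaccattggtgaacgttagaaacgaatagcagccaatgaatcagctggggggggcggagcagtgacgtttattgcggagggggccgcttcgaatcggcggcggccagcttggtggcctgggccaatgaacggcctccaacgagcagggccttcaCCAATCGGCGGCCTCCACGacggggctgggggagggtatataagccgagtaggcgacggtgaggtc
HERPUD1, chr16:56931892-56932141, plus strand: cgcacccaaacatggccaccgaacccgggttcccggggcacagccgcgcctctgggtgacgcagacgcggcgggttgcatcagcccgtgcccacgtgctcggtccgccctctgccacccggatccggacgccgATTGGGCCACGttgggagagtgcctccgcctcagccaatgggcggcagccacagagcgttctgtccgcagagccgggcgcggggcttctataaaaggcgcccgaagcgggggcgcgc

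Of the other elements searched, the UPRE core TGACGTGG stood in 1 gene, HYOU1, where it overlaps an ERSE-II (2.44% of windows, against 0.729% of all). The cyclic AMP element TGACGTCA stood in 1, CREB3L2 (2.44%, against 1.85%), and the composite element TGATGNAAT, bound by ATF4 with C/EBP factors, in none (against 0.991%). A match is a description of the letters in these windows only.

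Reads on genes numbered 14835246 to 19906601 per library, and the 35 genes took 0.842% to 1.14% of them. The cells carried epithelial keratins and mesenchymal transcripts, with 4 of 5 epithelial markers (EPCAM was at most 0.835 CPM) and 4 of 4 mesenchymal markers, VIM and CDH2 among them, above 1 CPM (the usual read count scaled to library size, here with TMM factors) in every library, whereas the prostate luminal markers KLK3, KLK2 and TMPRSS2 stayed at or under 3 counts in all 24 libraries and HOXB13 was expressed. Immune markers summed to at most 4.39 CPM. The 8 libraries of experiments 4 and 5, from all 4 conditions, stood apart from the other 16 on the second principal component, which held 16.5% of the variance (scores of at least 13.3 against at most -3.94). With the 35 genes left out of the calculation the scores were at least 13.4 and at most -3.97. The main results on the 35 genes in PGCC are therefore given with and without these experiments. Those on most of the wider gene lists are given with all experiments only.

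Levels between genes were compared as CPM per kilobase of listed gene length (RPKM). In parental cells the median level ran from 630 RPKM for CALR (calreticulin), 385 RPKM for HSP90B1 (GRP94), 335 RPKM for HSPA5 (BiP) and 264 RPKM for CANX (calnexin), the major folding chaperones, down to 5.18 RPKM for EIF2AK3, 3.17 RPKM for ERN1 and 2.45 RPKM for RNF103. The sensors PERK (EIF2AK3) and IRE1 (ERN1) were thus among the lowest expressed of the genes. The ranges of the 6 parental libraries overlapped between neighbours in this order for most genes, for instance 350 to 465 RPKM for HSP90B1 and 313 to 544 RPKM for HSPA5. DERL3, a derlin, was at the floor, with between 0 and 5 counts per library, and was the only one of the 35 that did not pass the filter on low counts.

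**Figure D1:**
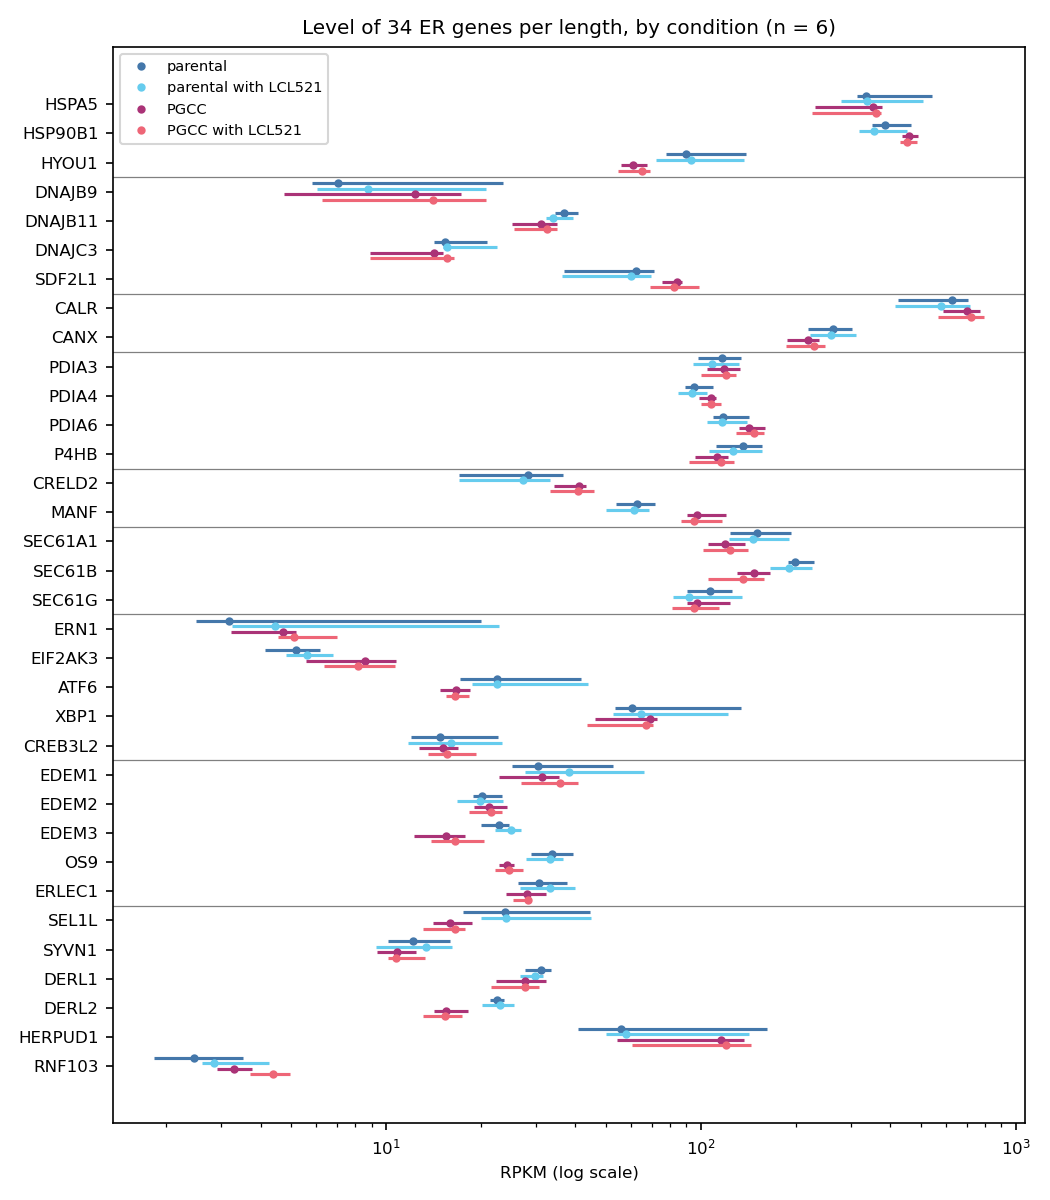
Level of 34 genes (DERL3 left out) in RPKM on a log axis. Points are medians and bars the lowest to highest of 6 libraries in each of 4 conditions, and lines separate the functional groups. ERN1, DNAJB9 and HERPUD1 have the longest bars in parental cells.

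The first question was how the 35 genes differed between PGCC and parental cells without LCL521. Of the 34 genes tested, 17 differed in edgeR's quasi-likelihood test with an adjusted p under 0.05 (50%), 6 higher and 11 lower in PGCC. This share was near that over all 13812 genes, of which 47.4% differed (23.1% higher and 24.3% lower), so as a group the genes did not stand out by number. Their median log2 fold change was -0.16, against -0.03 for all genes. Scaling by library totals moved the median of all genes to 0.07 and gave 9 higher and 7 lower. In bulk RNA, fewer cells with a transcript and less transcript per cell cannot be told apart, and values in PGCC are relative to the total RNA of cells with enlarged genomes.

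The genes that rose encode small luminal or secreted proteins of the UPR, PERK and the folding enzymes GRP94 and PDIA6. MANF, a secreted UPR protein with cytoprotective activity (hg19, chr3:51422478-51426828), had 97.8, 108, 87.0, 93.5, 81.1 and 95.7 CPM in parental libraries 1 to 6 and 163, 181, 153, 140, 141 and 137 CPM in PGCC. All 6 PGCC libraries lay above all parental ones. Its log2 fold change was 0.72 ± 0.09 (SE, n = 6 per condition; 1.65-fold; edgeR adjusted p = 1.7e-05).

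SDF2L1, a luminal partner of BiP with its DnaJ co-chaperones, had 31.7 to 61.5 CPM in parental cells (median 53.8) and 65.0 to 75.4 CPM in PGCC (median 72.9), also without overlap. It rose 1.48-fold (log2 fold change 0.57 ± 0.15; edgeR adjusted p = 0.0052). CRELD2, a disulfide isomerase-like protein induced with MANF in ER stress, rose 1.53-fold (0.61 ± 0.16; edgeR adjusted p = 0.0068), from 44.7 to 95.6 CPM in parental cells to 89.9 to 114 CPM in PGCC. Their ranges overlapped by 1 parental library, and CRELD2 shares part of its locus with ALG12 on the other strand. MANF and SDF2L1 were the 2 of 34 genes with all PGCC libraries above all parental ones, against 13.5% of all genes tested.

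EIF2AK3, the eIF2 kinase PERK, rose 1.60-fold (0.68 ± 0.16; edgeR adjusted p = 0.0029). It had 19.2, 23.5, 23.8, 28.7, 24.8 and 24.3 CPM in parental libraries and 37.3, 44.0, 42.5, 28.5, 25.9 and 49.9 CPM in PGCC. The 4 PGCC libraries of experiments 1, 2, 3 and 6 were above every parental library, and those of experiments 4 and 5 were within the parental range. PDIA6 and HSP90B1 rose 1.21-fold (edgeR adjusted p = 0.013) and 1.19-fold (edgeR adjusted p = 0.012), and lost the call when the filter on low counts was dropped (adjusted p = 0.055 for both). With the experiment as a block, CALR (1.19-fold; edgeR adjusted p = 0.010) and PDIA4 (1.12-fold; edgeR adjusted p = 0.034) were also higher, which made 8 higher and 11 lower, against 56.2% of all genes (27.9% higher and 28.3% lower).

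The genes that fell included 4 ERAD components, 2 translocon subunits and ATF6. EDEM3, a mannosidase that trims the glycans of ERAD substrates, had 139 to 169 CPM in parental cells (median 158) and 84.8 to 123 CPM in PGCC (median 107), without overlap. It fell by 0.55 on the log2 scale (0.684-fold; edgeR adjusted p = 3.2e-04). DERL2, a channel component of the ERAD machinery, had 90.0 to 99.9 CPM in parental cells and 59.7 to 76.5 CPM in PGCC. It fell by 0.48 (0.716-fold; edgeR adjusted p = 2.5e-04), with counts that are uncertain because MIS12 overlaps it.

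OS9, an ERAD lectin that delivers substrates to SEL1L, had 112 to 152 CPM in parental cells and 88.3 to 98.5 CPM in PGCC, and fell by 0.48 (edgeR adjusted p = 2.7e-04). SEC61B, a subunit of the translocon, had 130 to 158 CPM in parental cells and 89.4 to 114 CPM in PGCC, and fell by 0.45 (edgeR adjusted p = 7.1e-04). Neither overlapped between the conditions. With HYOU1, EDEM3 and DERL2 these were the 5 of 34 genes with every PGCC library under every parental one, against 13.6% of all genes.

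HYOU1, a large Hsp70-like chaperone and exchange factor for BiP, had 351 to 631 CPM in parental cells and 253 to 305 CPM in PGCC. It fell by 0.64 (edgeR adjusted p = 0.0017). SEL1L, the scaffold of the ERAD ligase complex, fell by 0.75 ± 0.19 (edgeR adjusted p = 0.0049) and ATF6, the sensor cleaved in the Golgi, by 0.67 ± 0.20 (edgeR adjusted p = 0.012). For these 3 genes the drop was more than 1.5 times smaller on the log2 scale without experiments 4 and 5, at 0.37 for HYOU1, 0.33 for SEL1L and 0.29 for ATF6, and each kept an adjusted p under 0.05. SEC61A1, the pore of the translocon (0.796-fold), and CANX (0.819-fold), P4HB (0.834-fold) and DNAJB11 (0.834-fold), a lectin, a disulfide isomerase and a BiP co-chaperone, fell with edgeR adjusted p between 0.014 and 0.027. SEC61A1 lost its call with library totals (edgeR adjusted p = 0.054), and its counts are uncertain because RUVBL1 overlaps it. CANX (edgeR adjusted p = 0.13) and DNAJB11 (edgeR adjusted p = 0.059) lost theirs without experiments 4 and 5.

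**Figure D2:**
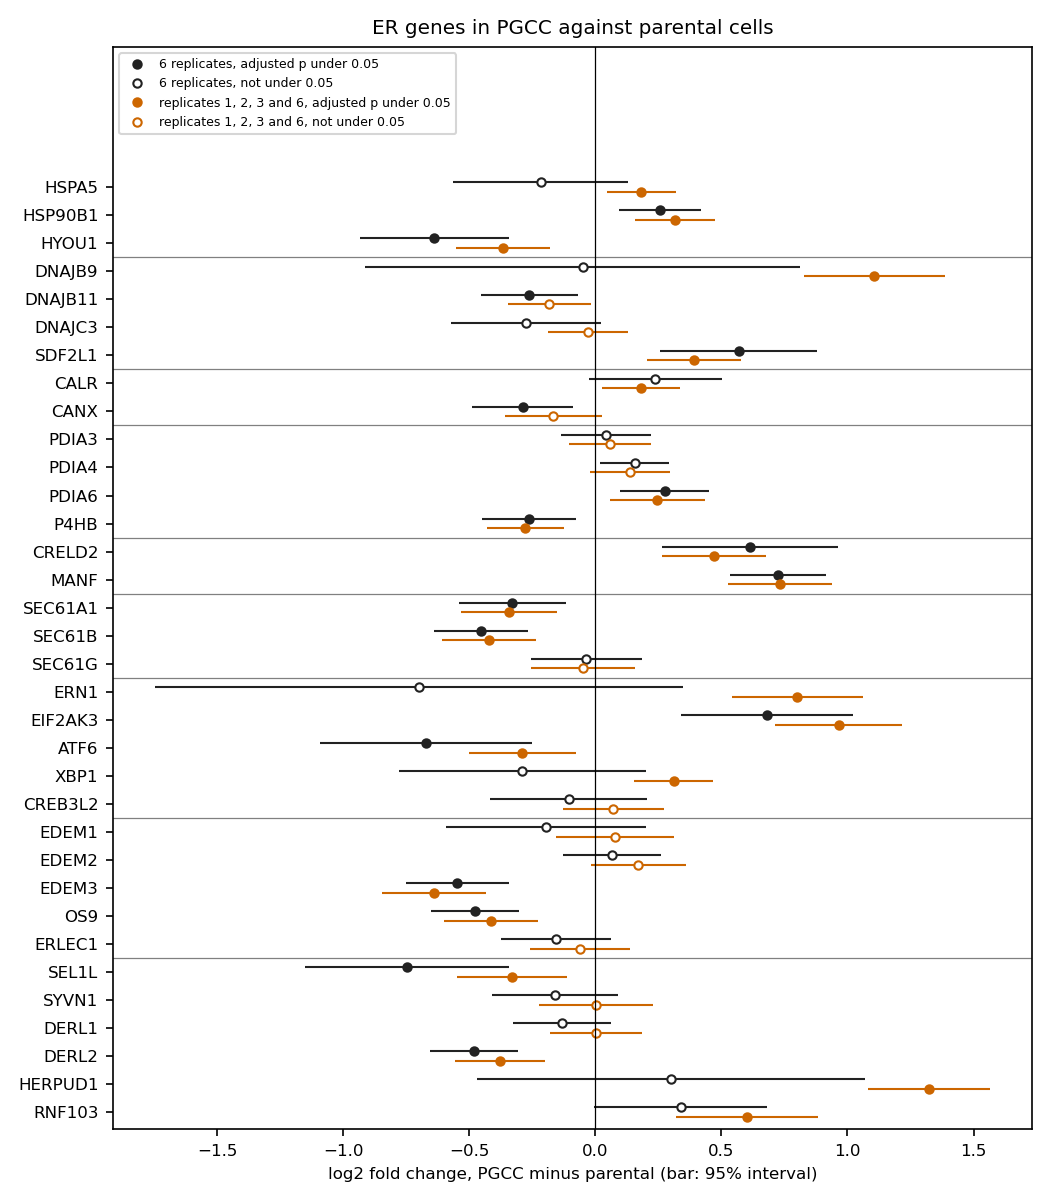
Log2 fold change of 34 genes in PGCC against parental cells, with 95% intervals, from all 6 experiments (black) and from experiments 1, 2, 3 and 6 (orange). Filled points have an edgeR adjusted p under 0.05. ERN1, DNAJB9 and HERPUD1 have wide intervals over 0 with 6 experiments and lie above 0 with 4.

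**Figure D3:**
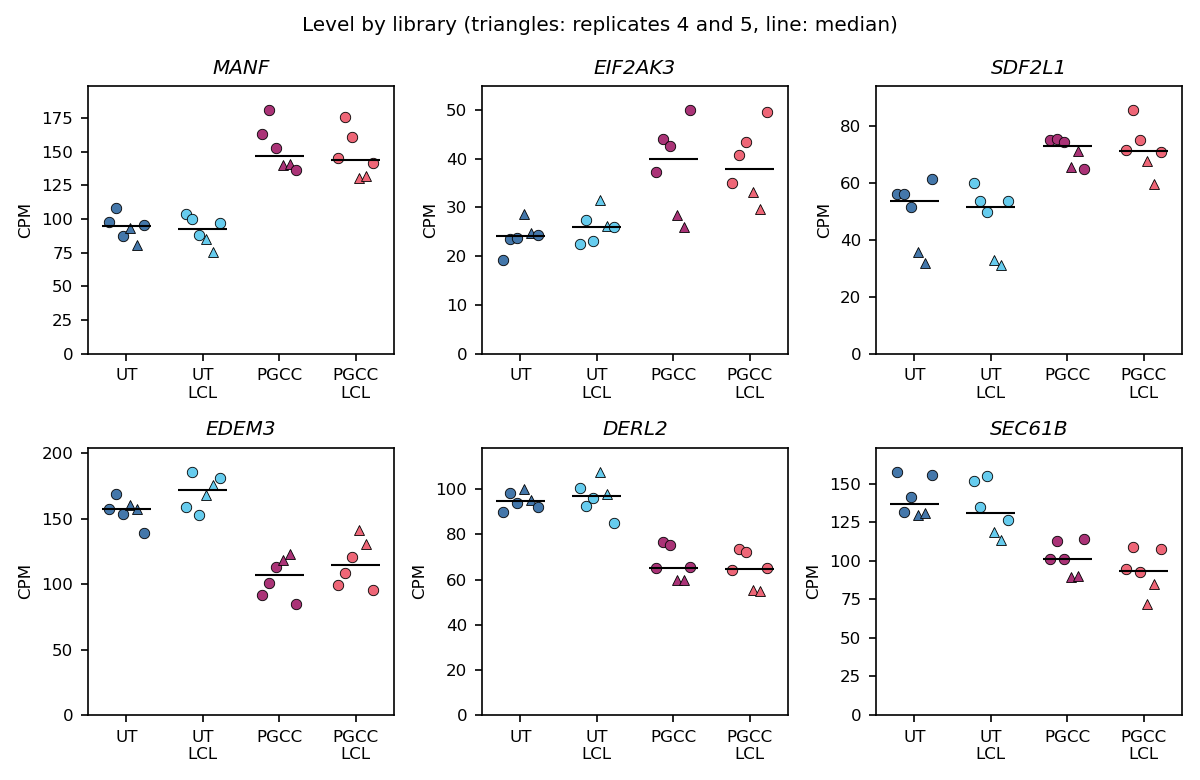
CPM in each library of 6 genes by condition. Lines are medians of 6 libraries and triangles mark experiments 4 and 5. MANF and SDF2L1 are higher and EDEM3, DERL2 and SEC61B lower in every PGCC library than in every parental one, and the triangles of EIF2AK3 in PGCC lie in the parental range.

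Several of the best-known UPR genes differed between experiments rather than in 1 direction. HERPUD1, an ERAD membrane protein strongly induced by ER stress (hg19, chr16:56965960-56977798), had 89.3, 115, 107, 338, 357 and 130 CPM in parental libraries 1 to 6 and 245, 275, 263, 179, 119 and 301 CPM in PGCC. The parental libraries of experiments 4 and 5 were the highest of the 12, and the PGCC libraries of the same experiments were the lowest of the PGCC. Over all 6 experiments its log2 fold change was 0.30 ± 0.36 (edgeR adjusted p = 0.52). Without experiments 4 and 5 it was 1.32 ± 0.11 (2.5-fold, n = 4 per condition; edgeR adjusted p = 7.9e-07).

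DNAJB9, the co-chaperone ERdj4 that binds IRE1 (hg19, chr7:108210012-108215294), had 15.7, 19.1, 18.3, 64.1, 60.7 and 19.1 CPM in parental libraries and 31.9, 35.2, 37.9, 23.2, 12.9 and 47.1 CPM in PGCC. Its log2 fold change was -0.05 ± 0.40 with all experiments (edgeR adjusted p = 0.93) and 1.11 ± 0.13 with experiments 1, 2, 3 and 6 (2.15-fold; edgeR adjusted p = 1.2e-05). Its direction over all experiments also turned with library totals, and it overlaps PNPLA8 and THAP5, so its counts are uncertain. HERPUD1 and DNAJB9 were singled out after their values were seen, whereas the sensors, XBP1 and HSPA5 were to be described whatever their change.

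ERN1, the sensor IRE1 that splices XBP1 mRNA (hg19, chr17:62120353-62207504), had 13.7, 10.5, 11.8, 80.5, 50.5 and 10.1 CPM in parental libraries and 19.2, 18.8, 20.9, 16.4, 12.9 and 20.0 CPM in PGCC. Its level in parental cells thus differed several fold between experiments, while PGCC stayed between 12.9 and 20.9 CPM. The log2 fold change was -0.70 ± 0.49 over 6 experiments (edgeR adjusted p = 0.26) and 0.80 ± 0.12 over 4 (1.74-fold; edgeR adjusted p = 9.5e-05).

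XBP1, the transcription factor downstream of IRE1, had 116 to 133 CPM in parental libraries 1, 2, 3 and 6, 242 and 293 CPM in parental libraries 4 and 5, 147 to 157 CPM in the 4 matching PGCC libraries and 127 and 100 CPM in PGCC of experiments 4 and 5. Gene counts do not tell its spliced from its unspliced form. Its log2 fold change was -0.29 ± 0.23 (edgeR adjusted p = 0.32) over 6 experiments and 0.31 ± 0.07 over 4 (edgeR adjusted p = 0.0028). HSPA5, or BiP, showed the same split at a smaller size, with 1225 to 1356 CPM in parental libraries 1, 2, 3 and 6, 2125 and 1698 CPM in parental libraries 4 and 5, and 1007 and 899 CPM in the PGCC of those experiments. Its log2 fold change was -0.22 ± 0.16 (edgeR adjusted p = 0.29) over 6 and 0.18 ± 0.06 (edgeR adjusted p = 0.026) over 4.

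**Figure D4:**
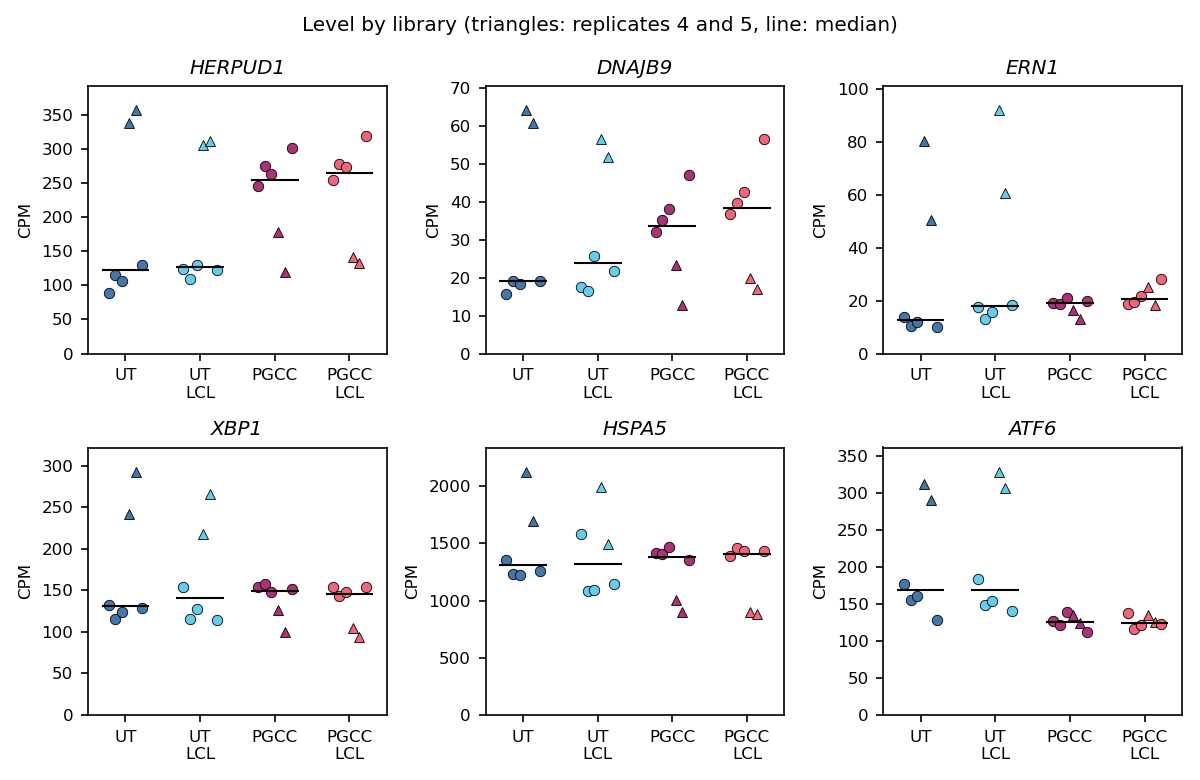
CPM in each library of 6 UPR genes by condition. Lines are medians of 6 libraries and triangles mark experiments 4 and 5. In parental cells with and without LCL521 the triangles of HERPUD1, DNAJB9, ERN1, XBP1 and ATF6 lie above all other libraries, and in PGCC those of HERPUD1, DNAJB9, XBP1 and HSPA5 lie below the other 4.

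Within pairs of the same experiment, HSPA5, DNAJB9, ERN1, XBP1, EDEM2 and HERPUD1 were higher in PGCC in all 4 pairs of experiments 1, 2, 3 and 6 and lower in both pairs of experiments 4 and 5. These 6 are 17.6% of the 34 genes, against 4.5% of all genes tested, and none of the 34 had the opposite pattern, against 5.02%. By the looser measure of a mean difference that changed sign between the 2 sets of experiments, 9 of the 34 did so (26.5%). This was near the share of all genes (25.7%). EDEM2 overlaps PROCR and MMP24-AS1, so its counts are uncertain. The mean paired difference in log2 CPM was 1.30 ± 0.11 (SD, n = 4) in experiments 1, 2, 3 and 6 and -1.25 in experiments 4 and 5 for HERPUD1, 1.06 ± 0.17 and -1.84 for DNAJB9, 0.78 ± 0.21 and -2.12 for ERN1, and 0.28 ± 0.11 and -1.24 for XBP1. It was 0.70 and 0.69 for MANF, and -0.44 and -0.61 for OS9. SDF2L1 and CRELD2 had the same direction in both sets but differed in size, at 0.36 and 1.02 for SDF2L1 and 0.45 and 1.01 for CRELD2, and so did EDEM3, at -0.67 and -0.40. In the fit without experiments 4 and 5 the log2 fold change was 0.39 for SDF2L1 (edgeR adjusted p = 0.0019) and 0.47 for CRELD2 (edgeR adjusted p = 0.0011). SDF2L1, CALR, PDIA4, PDIA6, CRELD2 and MANF were higher in PGCC in 6 of 6 pairs (24% of all genes were), and 13 of the 34 genes were lower in 6 of 6 (26.8% of all genes).

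Experiments 4 and 5 could differ in their parental cells, their PGCC or both, and the levels showed both. In parental cells 11 of 34 genes had a mean at least 0.5 higher on the log2 scale in experiments 4 and 5 (32.4%, against 19.1% of all genes), led by ERN1 at 2.47, DNAJB9 at 1.79, HERPUD1 at 1.66 and XBP1 at 1.09, followed by ATF6, EDEM1 and SEL1L. CRELD2, SDF2L1 and CALR were at least 0.5 lower there. In PGCC none of the 34 was at least 0.5 higher (8.41% of all genes) and 5 were at least 0.5 lower (14.7%, against 7.69% of all genes): DNAJB9, HERPUD1, EIF2AK3, DNAJC3 and HSPA5.

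A list of 19 eIF2 kinases, related factors and outputs of the PERK branch, the transcripts that follow eIF2 phosphorylation, moved with this split in parental cells. Of the 19 genes, 12 were at least 0.5 higher in parental experiments 4 and 5 (63.2%, against 19.1% of all genes) and 1, ATF5, was at least 0.5 lower. In PGCC 1 of the 19 was at least 0.5 higher and 5 were at least 0.5 lower (26.3%, against 7.69% of all genes). ATF4, the transcription factor of this branch, had 171 to 210 CPM in parental libraries 1, 2, 3 and 6 and 639 to 793 CPM in parental libraries 4 and 5, and CHAC1, an ATF4 target that degrades glutathione, had 1.52 to 3.06 CPM and 99.5 to 111 CPM. In PGCC the mean log2 CPM of experiments 4 and 5 differed from that of the others by 0.079 for ATF4 and 0.20 for CHAC1. These means cover libraries on opposite sides of the others. ATF4 had 224 and 325 CPM in PGCC of experiments 4 and 5, against 239 to 287 CPM in the others. CHAC1 had 9.99 and 34.6 CPM there, against 14.7 to 19.0 CPM. DDIT3, the factor CHOP, had 2.62 to 3.54 CPM in parental libraries 1, 2, 3 and 6 and 15.6 to 17.2 CPM in parental libraries 4 and 5. Of the 3 markers of irradiated or arrested cells, GDF15 had 104 to 147 CPM in parental libraries 1, 2, 3 and 6, 1455 to 1756 CPM in parental libraries 4 and 5 and 314 to 530 CPM in PGCC. CDKN1A, the cell cycle inhibitor p21, was lower in experiments 4 and 5 of both populations, with 5.06 to 6.08 CPM against 11.3 to 14.4 CPM in parental libraries and 51.6 to 67.3 CPM against 164 to 185 CPM in PGCC. MDM2 showed no such split, with 41.0 to 57.3 CPM in parental libraries 1, 2, 3 and 6 and 46.3 to 50.6 CPM in parental libraries 4 and 5. It had 38.9 to 45.4 CPM in PGCC. The summed level of the 3, mostly GDF15, was 164 to 217 CPM against 1511 to 1807 CPM in parental libraries. The fibroblast markers, mostly COL1A2, summed to 51.0 to 67.8 CPM in parental libraries 1, 2, 3 and 6, 70.3 to 135 CPM in parental libraries 4 and 5 and 82.7 to 205 CPM in PGCC, with DCN at 0.349 CPM or less. What part these states of the cultures had in the results on the 34 genes was not tested.

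Without experiments 4 and 5, 22 of 34 genes differed between PGCC and parental cells, 13 higher and 9 lower, against 54.6% of the 13809 genes tested (27.7% higher and 26.9% lower). The 13 were HERPUD1, DNAJB9, EIF2AK3, ERN1, MANF, RNF103, CRELD2, SDF2L1, HSP90B1, XBP1, PDIA6, HSPA5 and CALR. EIF2AK3 had a log2 fold change of 0.97 ± 0.12 (1.95-fold; edgeR adjusted p = 1.6e-05) and RNF103, an ER membrane ubiquitin ligase, 0.60 ± 0.13 (edgeR adjusted p = 0.0016). RNF103 shares its locus with CHMP3 on the same strand, so its counts are uncertain. With the block these 4 experiments gave 14 higher and 11 lower, against 64.3% of all genes (32.7% higher and 31.6% lower). The 9 that were lower without the block were EDEM3, SEC61B, OS9, DERL2, HYOU1, SEC61A1, SEL1L, ATF6 and P4HB. Genes of both directions thus kept their calls in the 4 experiments, and the direction of ERN1, DNAJB9, XBP1 and HSPA5 turned.

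The 10 genes with an ERSE or ERSE-II did not share 1 direction. With all 6 experiments SDF2L1, CRELD2, PDIA6 and HSP90B1 were higher in PGCC, HYOU1 and CANX were lower, and HSPA5, CALR, XBP1 and HERPUD1 were not past the threshold. Without experiments 4 and 5, all of these but HYOU1, which was lower, and CANX (log2 fold change -0.17, edgeR adjusted p = 0.13) were higher. Of all genes tested, 23.1% were higher and 24.3% lower with 6 experiments. Without experiments 4 and 5 it was 27.7% and 26.9%. Whether the elements had a part in these changes was not tested. MANF, the one of the 34 with the smallest p over all 6 experiments, held neither element as spelled here.

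The same question was asked of cells exposed to LCL521, in libraries that the first comparison did not use but that come from the same 6 experiments. Of 34 genes, 17 differed, 9 higher and 8 lower, against 48.9% of the 13818 genes tested (25% higher and 23.9% lower). With the block there were 9 higher and 10 lower, against 56.3% (29.5% higher and 26.8% lower). MANF was 1.66-fold higher (edgeR adjusted p = 2.2e-05), CRELD2 1.59-fold (edgeR adjusted p = 0.0017), SDF2L1 1.58-fold (edgeR adjusted p = 0.0024), EIF2AK3 1.52-fold (edgeR adjusted p = 0.0017) and RNF103 1.43-fold (edgeR adjusted p = 0.0055). HSP90B1, PDIA6, PDIA4 and CALR made up the 9, at 1.18-fold to 1.26-fold.

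DERL2 was 0.684-fold (edgeR adjusted p = 2.0e-04), EDEM3 0.701-fold (edgeR adjusted p = 9.3e-04), OS9 0.775-fold (edgeR adjusted p = 0.0015) and SEC61B 0.723-fold (edgeR adjusted p = 0.0026) with LCL521. SEL1L, ATF6 and HYOU1 fell by 0.75, 0.69 and 0.57 on the log2 scale, and SEC61A1 by 0.26 (edgeR adjusted p = 0.048), a call that was lost without any 1 of experiments 1, 2, 3, 4 and 6. HERPUD1 split again, with 110 to 130 CPM in parental libraries 1, 2, 3 and 6, 305 and 312 CPM in parental libraries 4 and 5, 255 to 318 CPM in 4 PGCC libraries and 142 and 133 CPM in PGCC of experiments 4 and 5. Without those experiments its log2 fold change was 1.25 ± 0.09 (edgeR adjusted p = 2.4e-07) and that of DNAJB9 1.15 ± 0.17 (edgeR adjusted p = 9.7e-05), and 20 of the 34 genes differed (14 higher and 6 lower, against 27.9% and 24.6% of all genes, 52.5% in all). The block then gave 15 higher and 8 lower, against 57.5% of all genes (30.7% and 26.9%). HYOU1 (edgeR adjusted p = 0.060) and SEC61A1 (edgeR adjusted p = 0.064) were no longer called without experiments 4 and 5 when no block was used. The pattern in experiments 4 and 5 was present in parental cells with and without LCL521.

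The second question was whether inhibition of ASAH1 for 5 h altered these genes. In parental cells, edgeR called 0 of 34 genes and 0 of the 13277 genes tested (0%) without regard to the experiment, with 0 of the 34 and 71 of all genes at an unadjusted p under 0.05, and DESeq2 called 0. With the experiment as a block, 115 genes differed (0.866%, with 0.52% higher and 0.346% lower), among them 2 of the 34, both higher. EDEM1, an ERAD mannosidase-like protein, had 185, 161, 188, 299, 323 and 154 CPM in parental libraries 1 to 6 and 235, 170, 233, 365, 405 and 194 CPM with LCL521. It was higher in 6 of 6 pairs although the conditions overlapped, and rose 1.22-fold (95% interval 1.15 to 1.29; edgeR adjusted p = 0.0069 with the block).

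ERN1 was also higher with LCL521 in 6 of 6 pairs of parental cells, at 17.5, 13.1, 15.5, 91.9, 60.5 and 18.3 CPM, and rose 1.29-fold (95% interval 1.15 to 1.43; edgeR adjusted p = 0.031 with the block). Without experiments 4 and 5 the block gave 0 of 34 calls and 3 among all genes (0.0227%, with 0.0151% higher and 0.00755% lower), with log2 fold changes of 0.27 for EDEM1 (adjusted p = 0.11) and 0.49 for ERN1 (adjusted p = 0.15). Both sizes were near or above those of all 6 experiments. Of the 34 genes, EDEM1 and ERN1 were higher in 6 of 6 pairs (3.32% of all genes were), and HSP90B1, DNAJB11, PDIA3 and P4HB lower in 6 of 6 (4.57%), by at most 0.10 in the fit without the block.

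In PGCC, edgeR called 0 of 34 genes and 1 of 14151 (0.00707%) after LCL521, and DESeq2 0 of 34 and 6 of all genes. At an unadjusted p under 0.05 there were 2 of the 34 (RNF103 and ERN1) and 218 of all genes. With the block 234 genes differed (1.65%, with 1.08% higher and 0.572% lower), of which 3 of the 34, all higher. RNF103 had 13.9, 17.2, 14.3, 16.5, 13.2 and 15.7 CPM in PGCC and 18.7, 16.9, 20.4, 19.5, 20.9 and 22.5 CPM with LCL521. It was higher in 5 of 6 pairs and rose 1.31-fold (95% interval 1.18 to 1.46; edgeR adjusted p = 0.0049 with the block). It was the only one of the 34 that kept the call with the block in experiments 1, 2, 3 and 6 (1.28-fold; edgeR adjusted p = 0.047; 0.91% of all genes, with 0.508% higher and 0.402% lower). Its counts in PGCC were low, at 229 to 381 per library, and carry the uncertainty of CHMP3.

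EDEM1 was higher with LCL521 in 6 of 6 pairs of PGCC as well, at 1.13-fold (95% interval 1.07 to 1.19; edgeR adjusted p = 0.018 with the block), and EDEM3 in 6 of 6 pairs at 1.1-fold (1.05 to 1.16; edgeR adjusted p = 0.045 with the block). Without experiments 4 and 5 the adjusted p was 0.12 for EDEM1 and 0.30 for EDEM3. DNAJC3 was also higher in 6 of 6 pairs of PGCC (3.83% of all genes were), and SEC61B and DERL2 lower in 6 of 6 (4.08%), none of them past the threshold. The remaining 31 genes were not called, and the intervals of the chaperones were narrow in the blocked fit: the log2 fold change of HSPA5 lay between -0.09 and 0.05, that of HSP90B1 between -0.09 and 0.04 and that of CALR between -0.06 and 0.07. The PGCC response of ERN1 was 1.22-fold (1.09 to 1.36; edgeR adjusted p = 0.065 with the block).

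**Figure D5:**
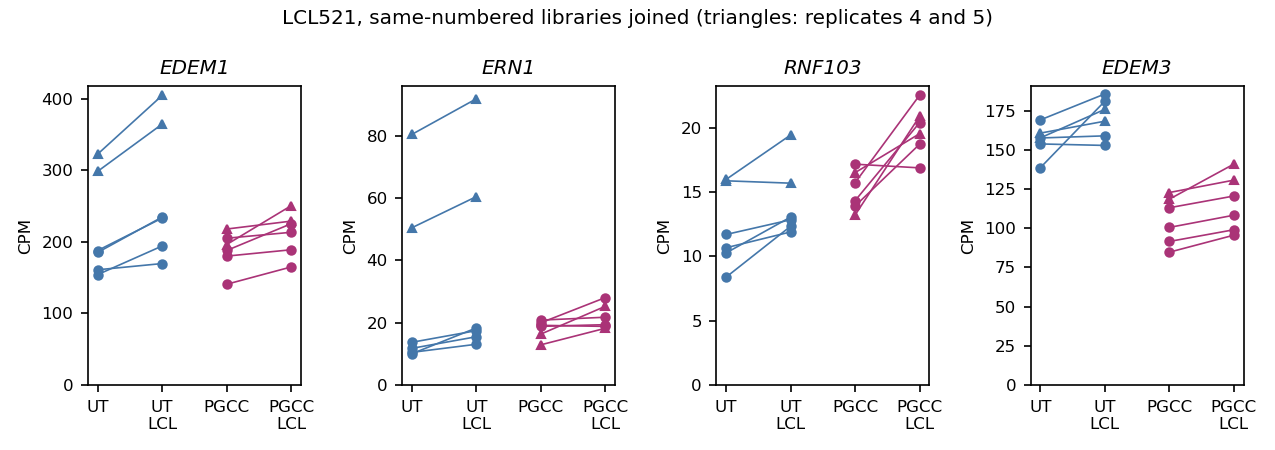
CPM of EDEM1, ERN1, RNF103 and EDEM3 with and without LCL521, with libraries of the same experiment joined (blue, parental cells; purple, PGCC; triangles, experiments 4 and 5). The lines of EDEM1 rise in 6 of 6 pairs in both populations, with spreads between experiments that exceed the rise.

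Whether LCL521 acted differently in the 2 populations was tested as an interaction over all 24 libraries. EdgeR called 0 of 34 and 0 of 14555 genes (0%), with 0 of the 34 and 60 of all genes at an unadjusted p under 0.05, and DESeq2 called 0. The genes of the 34 with the smallest p were DNAJB11 (difference of log2 fold changes 0.12, 95% interval -0.14 to 0.38), OS9 (0.09, -0.13 to 0.32) and RNF103 (0.16, -0.26 to 0.59). For ERN1 the interval ran from -1.46 to 1.46, from -1.25 to 1.05 with the block, and from -0.68 to 0.035 with the block and without experiments 4 and 5. With the block the intervals were -0.07 to 0.23 for CALR and -0.43 to 0.20 for EDEM1.

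The wider machinery was described with lists of other genes of the same pathways, none of them among the 35, in PGCC against parental cells. Of the 23 other translocon, signal recognition and signal peptidase genes 1 was higher and 15 were lower (median log2 fold change -0.40), against 23.1% higher and 24.3% lower of all genes. Without experiments 4 and 5 the counts were 1 and 14, against 27.7% higher and 26.9% lower of all genes. The values of the genes named next, and the ERAD counts, are given with all experiments only. SEC11C, a catalytic subunit of signal peptidase, fell by 1.29 and SRPRB, the anchor of the signal recognition particle receptor, by 0.61, whereas SEC61A2, a second pore isoform, was 0.97 higher. Of 37 other ERAD components 3 were higher and 15 lower (median -0.19): YOD1, a deubiquitinase, at 1.08 and UFD1L, a cofactor of the p97 segregase, at 0.61 were the largest rises, and SEL1L3 at -0.87 and the ligase TRIM13 at -0.85 the largest falls.

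The counts of the lists that follow stand beside 23.1% higher and 24.3% lower of all genes tested. They come from the fit with all experiments, and how they change without the experiments that stand apart is not given. Other chaperones and co-chaperones went both ways, with 9 higher and 6 lower of 31 (median 0.06). The calcium-binding protein RCN3 was 1.33 higher and the prolyl isomerase FKBP7 0.79 higher, while DNAJC10, a reductase that acts with BiP, was at -0.72 and RCN1 at -0.70. Of 17 oxidative folding enzymes 6 were higher and 3 lower (median 0.10), with SELT at 0.76 and TMX4 at 0.60, and TMX3 at -0.75 and ERP29 at -0.43. Of 23 genes of ER exit and KDEL retrieval 7 were higher and 3 lower (median 0.08), led by KDELR3, a receptor that returns luminal chaperones, at 1.29 and the coat protein SEC24A at 0.93, with TMED10 at -0.54 and MIA3 at -0.49. Of 8 ER-phagy receptors 2 were higher (ATL3 0.39, RTN3 0.25) and 2 lower (TEX264 -0.57, FAM134A -0.56), with a median of -0.49.

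The 18 other UPR sensors and regulators had none higher and 5 lower (median -0.05), among them MBTPS2, the protease that cleaves ATF6, at -0.63 and ATF6B at -0.48. For this list, too, values are given with all experiments only. Of the 19 eIF2 kinases and PERK outputs 1 was higher and 4 were lower (median -0.17) with all experiments, but 10 were higher and 4 lower (median 0.20) without experiments 4 and 5. The shares of all genes were 23.1% higher and 24.3% lower with all experiments, and 27.7% and 26.9% without experiments 4 and 5. ATF3, a stress-induced factor, had a log2 fold change of 2.03 ± 0.63 (edgeR adjusted p = 0.016) over 6 and 4.12 over 4 experiments. Its direction differed between the experiments. In experiments 1, 2, 3 and 6 it had 33.5 to 71.1 CPM in PGCC and 2.36 to 3.02 CPM in parental cells. In experiments 4 and 5 it was lower in PGCC, at 15.1 to 16.4 CPM against 21.3 to 21.4 CPM. TRIB3, an inhibitor of the ATF4 branch, fell by 2.04 (edgeR adjusted p = 0.0029) and 1.24, and DDIT4 fell by 1.78 (edgeR adjusted p = 0.014) and 0.53.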

How the data were processed

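RNA-seq was analysed from 24 libraries of PPC1 cells, 6 in each of 4 conditions. The authors deposited raw read counts per gene, without normalization, with gene lengths and coordinates. Per the study's methods and the submitters' processing notes, reads were aligned with STAR to build hg19 and counted with HTSeq. The annotation release and strand setting are not given in the sources used here, so counts of overlapping genes are uncertain. No per-sample column was left out.

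Groups and replicate numbers came from the sample labels. Depth was 14835246 to 19906601 counts per library, and 3 counts, taken as the floor, corresponded to 0.151 to 0.202 CPM. Libraries of the same condition differed beyond counting noise in all 60 pairs (chi-square per degree of freedom 4.69 to 109.8). In R 4.3.3, edgeR 4.0.16 (limma 3.58.1) was used with filterByExpr (minimum count 10, minimum total 15), TMM scaling and the quasi-likelihood test on the 12 libraries of each comparison, or all 24 for the interaction, fitted over all genes with Benjamini-Hochberg adjustment and a threshold of 0.05. Intervals are at 95%, and log2 CPM carries a prior count of 2. CPM and RPKM are TMM scaled. The procedure was tested on simulated data, with no experiment effect or with effects drawn independently for each gene. These data did not mimic the split of experiments 4 and 5. The fit without the experiment as a block was held to a pass mark only where no experiment effect was simulated.

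Same-numbered libraries deviated together from their condition means, with correlations of 0.171 to 0.443 (PGCC against parental with LCL521), 0.237 to 0.411 (without), 0.385 to 0.619 (LCL521 in PGCC) and 0.458 to 0.813 (LCL521 in parental cells); the numbers mark the independent experiments of the design. A model that adds the experiment as a blocking factor was tried as an alternative, beside library totals, RLE factors, DESeq2 1.42.0, no filter beyond 1 count, and libraries left out.

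The genes and lists were chosen with earlier results of these data known. Full statistics were given for the called genes with the 8 largest changes in each direction, for ERN1, EIF2AK3, ATF6, XBP1 and HSPA5, for the genes called in a LCL521 comparison with or without the block or else the 3 smallest p-values, and in each pathway list for the 2 called genes that rose most and the 2 that fell most (mean log2 CPM of at least 2). Of 187 symbols in these lists 183 were found. Correlations between genes across libraries were not reported because the libraries form 2 clusters, and protein sequences were not used here.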

Additional observations from a re-analysis of the deposited data

Results flagged for a closer look

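DNAJC3, a co-chaperone of BiP that also restrains PERK, had 117 CPM in parental library 4 and 79.6 to 88.5 CPM in the other 5 parental libraries. On the log2 scale the gap was 0.723 of the whole range. This library lies in 1 of the experiments that stand apart from the rest, and the cause was not tested. It was the only library flagged in the 136 groups of 6 libraries examined. The rule looks for 1 library apart from the other 5, and the shared shifts of experiments 4 and 5 described above were not flagged by it. Chance alone flags about 1 group in 20, so a single flag is no more than chance gives.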

How the results depend on the processing

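Most values of the named genes kept their direction and side of the threshold under the alternatives (229 in PGCC against parental cells and 227 with LCL521). Without replicates 4 and 5 the log2 fold change of PGCC against parental cells turned for ERN1 (0.80, and 0.81 with the replicate block), XBP1 (0.31 and 0.31), HSPA5 (0.18 and 0.18) and DNAJB9 (1.11 and 1.09); DNAJB9 also turned with library totals (0.043) and the replicate block (0.17), and ran from -0.32 to 0.38 with each replicate left out, turning without replicate 4 (0.33) and without replicate 5 (0.38); XBP1 ran from -0.42 to 0.0073, turning without replicate 5. With LCL521 it turned without replicates 4 and 5 for ERN1 (0.49 and 0.49 with the replicate block), XBP1 (0.28 and 0.28) and HSPA5 (0.27 and 0.28), without replicate 4 for HSPA5 (range -0.24 to 0.092) and without replicate 6 for DNAJB9 (range -0.079 to 0.58). The number of called genes of the 34 lay between 15 and 17 with each replicate left out in turn in both comparisons, and that over all genes between 5529 and 6333, or 5734 and 6339 with LCL521. For LCL521 in parental cells the replicate block gave 2 of the 34 and 115 of all genes, and 3 of all genes without replicates 4 and 5. For LCL521 in PGCC it gave 3 of the 34 and 234 of all genes, and 1 and 129 without replicates 4 and 5; DESeq2 gave 6 of all genes, the fit without replicates 4 and 5 gave 0, and leaving out each replicate gave 0 to 1. Apart from these, the calls of CALR and PDIA4 in PGCC against parental cells, and those of P4HB and ERLEC1 with LCL521, the replicate block changed no call of the 34 genes with all experiments; without replicates 4 and 5 it changed those of CANX, DNAJB11 and PDIA4, and with LCL521 those of HSPA5, HYOU1 and SEC61A1. The cause of these turns was not tested. Genes near the floor, such as DERL3, could not be compared at this depth.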
